A study of Mus musculus with 8 samples.

Results

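The 10 genes described here, Wfs1, Pou3f1, Spink8, Fibcd1, Mpped1, Bok, Prox1, Dsp, Tdo2 and Ociad2, were taken as markers of subfields of the hippocampus. They were the genes that 11 of the 39429 non-control probes on the arrays matched through their RefSeq accession, 10 of the 20144 genes so matched, with 2 probes for Dsp and 1 for each other gene. The genes were listed by name, with earlier results of these data known. RNA came from 8 samples of dissociated, cultured mouse hippocampal neurons, measured on 2-colour Agilent arrays. Neurons grown for 10 days in multiwell plates received a lentivirus for GFP or for Flag-tagged Nr4a1, an orphan nuclear receptor, and RNA was taken 6 days later. Each group had 4 arrays, and every array set the culture, labelled with Cy5, against the RNA sold as Universal Mouse Reference, labelled with Cy3. Both groups thus carried a virus. The promoter driving the transgenes, the share of infected cells and the strain and age of the mice are not given in the sources used here. The labels tie each Nr4a1 array to a GFP array by a pair tag and place the pair of replicate 4 in a batch of its own. Nothing states that the arrays came from separate cultures, so the p-values speak only of the spread among these 8 samples, part of which may be technical.

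The hippocampus relays signals from the granule cells of the dentate gyrus to the pyramidal cells of CA3, and from there to those of CA1, with the small CA2 field in between. Each of these cell types is recognised by genes that it transcribes more strongly than its neighbours. Wfs1, Pou3f1, Spink8, Fibcd1 and Mpped1 are used as marks of CA1 pyramidal cells, Bok of CA3 pyramidal cells, and Prox1, Dsp and Tdo2 of granule cells, while Ociad2 was given no subfield here. In a culture of mixed cells, fewer cells of a type and less RNA per cell cannot be told apart.

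Bok and Wfs1 were the 2 genes whose higher level held in the most settings tried, so the 250 bases upstream of each RefSeq start site are shown, on GRCm38.p6, 5′ to 3′ on the gene's own strand. The Bok stretch lies at chr1:93685325-93685574 on the plus strand and the Wfs1 stretch at chr5:36988983-36989232 on the minus strand, and capitals would mark the Nr4a1 element searched for, of which neither holds one.
Bok: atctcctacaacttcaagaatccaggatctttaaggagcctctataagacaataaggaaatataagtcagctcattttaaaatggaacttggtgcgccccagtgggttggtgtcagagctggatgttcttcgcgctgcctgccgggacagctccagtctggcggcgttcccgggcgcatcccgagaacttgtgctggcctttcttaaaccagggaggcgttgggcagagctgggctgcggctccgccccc
Wfs1: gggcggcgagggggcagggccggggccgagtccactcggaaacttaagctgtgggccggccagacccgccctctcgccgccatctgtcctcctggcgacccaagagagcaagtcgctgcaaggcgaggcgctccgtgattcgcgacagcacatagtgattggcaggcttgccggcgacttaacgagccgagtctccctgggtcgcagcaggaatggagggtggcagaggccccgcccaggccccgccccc
The search was for AAAGGTCA, the element that Nr4a1 binds as a monomer, on both strands of windows from 250 bases before to 50 bases after a start site. RefSeq windows were found for 8 of the 10 genes, 10 windows in all. AAAGGTCA was in 0 of these 10 and in 1.51% of the 32851 windows of the table. The shorter AGGTCA, which lies inside AAAGGTCA, was in 1 of the 10, that of Tdo2, and in 16.3% of all windows. The Bok window held 16 CpG dinucleotides at 56.3% G and C, the Wfs1 window 30 at 70.0%, and the median window 7 at 52.7%. A match in letters is not a bound site, and the absence of one says nothing of sequence outside the window.

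Several facts of the whole series bear on every value below. All 4 GFP-labelled arrays were on 1 slide, and the Nr4a1-labelled arrays were on 2 others, so slide and group cannot be told apart. The probe for Nr4a1 gave a mean log2 ratio of -2.14 under GFP and -1.85 under Nr4a1, a difference of 0.30 ± 0.15 (SE, n = 4 per group, limma, adjusted p = 0.196) with 3 of 4 pairs higher. The difference was 0.52 without replicate 2 (limma, adjusted p = 0.00675) and 0.40 under median centring (adjusted p = 0.0167), and 0.15 and 0.16 without replicates 1 and 3 (adjusted p = 0.589 and 0.524). It did not pass in the main fit, so the groups are named by their labels throughout. Whether the probe reads the transgene was not tested. Median Cy5 signals ran from 137 to 194 over local backgrounds of 29 to 32, and 0 spots were saturated. Of 21116 genes and unnamed transcripts tested, 24.4% passed an adjusted p of 0.05, 12.8% higher and 11.5% lower in the Nr4a1-labelled arrays.

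Of the 10 genes, 9 were bright enough to be tested. In the Nr4a1-labelled arrays 3 were higher (Bok, Wfs1, Pou3f1), 5 were lower (Spink8, Mpped1, Fibcd1, Dsp, Ociad2) and Prox1 did not pass. The groups did not overlap in 7 of the 9, where 24.4% of all features tested did not overlap. For Fibcd1, among these 7 and the 5 lower, the GFP-labelled arrays alone were enough for it to be tested. Its Cy5 was well above background on 4 GFP-labelled arrays and on 2 Nr4a1-labelled arrays. The median difference of the 9 was -0.22 on the log2 scale, beside -0.0035 over all features. The genes used as marks of CA1 moved in both directions, 2 up and 3 down. With slide as a random block 0 of the 9 passed, with Bok at an adjusted p of 0.0721 (limma). As no slide held both groups, this setting cannot tell slide from group. With all spots kept in the background correction only Bok and Wfs1 passed. Within batch 1, the pairs of replicates 1 to 3, the differences were 1.70 for Bok, 0.74 for Wfs1, 0.46 for Pou3f1, -1.11 for Spink8, -1.004 for Mpped1, -0.77 for Fibcd1, -0.59 for Dsp and -0.27 for Ociad2, each past the threshold, and -0.0057 for Prox1. Batch 2 was the pair of replicate 4 alone, and its differences had the same signs for the 8 genes that passed. Values below are log2 ratios of culture over reference, in the order of replicates 1 to 4, and differences are Nr4a1 minus GFP with their standard errors.

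**Figure D1:**
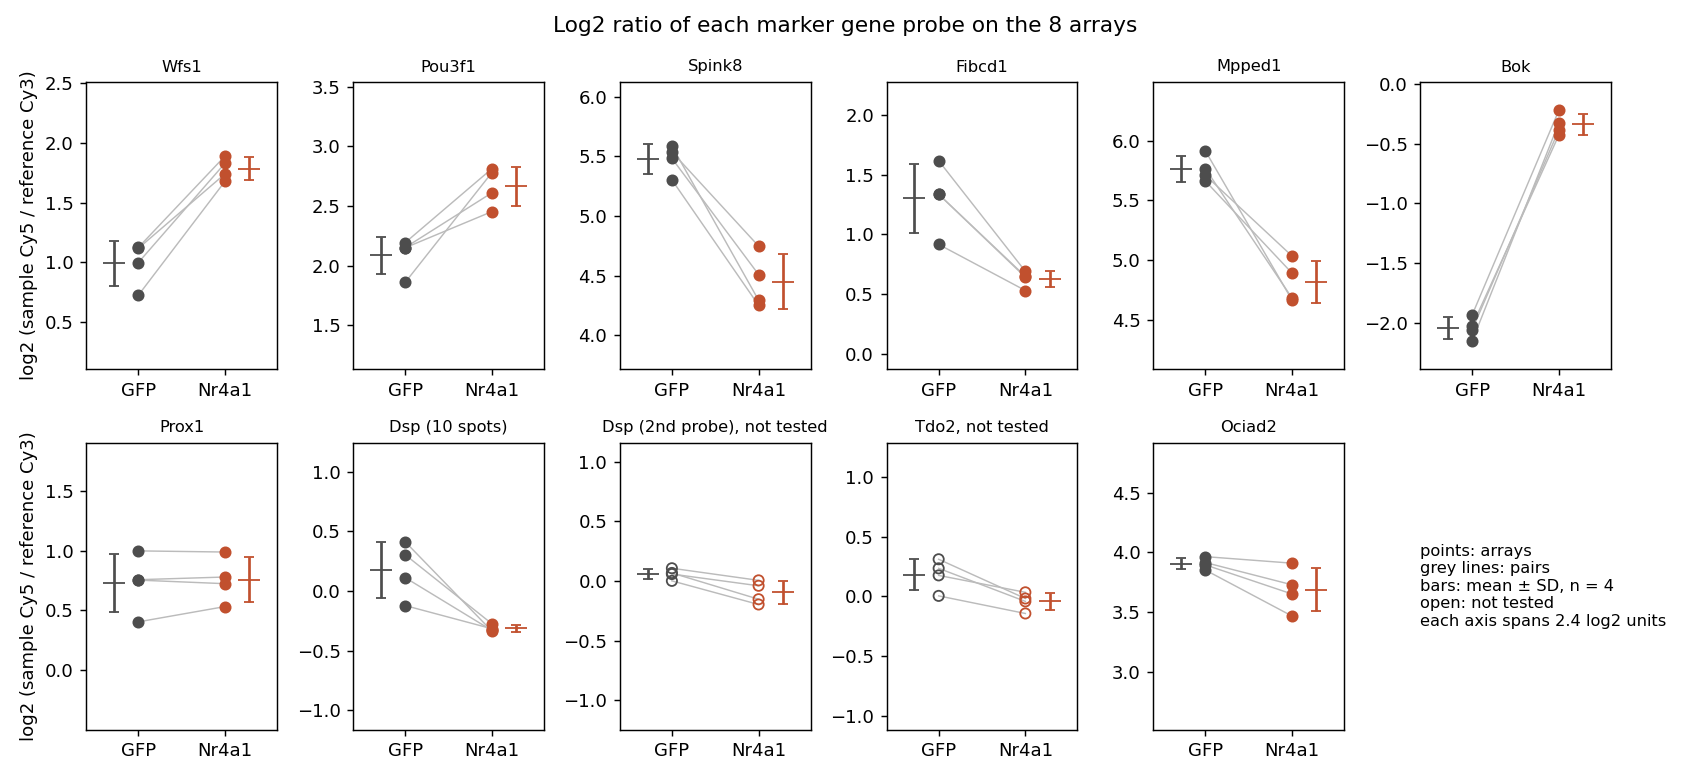
Log2 ratio of culture over reference RNA (vertical axis) for each of the 11 probes, 1 point per array, with lines joining the pairs and bars for the mean and SD of each group (open points were not tested). Bok lies between -2.15 and -1.93 on the GFP-labelled arrays and between -0.43 and -0.22 on the Nr4a1-labelled ones, while the Prox1 values of both groups share 1 range.

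Wfs1 encodes wolframin, a membrane protein of the endoplasmic reticulum. Its log2 ratios were 1.12, 1.00, 1.12 and 0.72 on the GFP-labelled arrays and 1.74, 1.83, 1.89 and 1.68 on the Nr4a1-labelled arrays. Every Nr4a1-labelled array was above every GFP-labelled array, and replicate 4 was the lowest of each group. Wfs1 rose by 0.79 ± 0.07, or 1.73-fold (limma, adjusted p = 3.26e-05), and by 0.62, 0.83, 0.77 and 0.95 in the 4 pairs. The background-subtracted Cy5 signal ran from 5200 to 8425.5 under GFP and from 8959 to 17150 under Nr4a1, while the reference channel kept a ratio of group means of 1.02.

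Pou3f1 encodes a POU-domain transcription factor, also known as Oct6 or SCIP. Its log2 ratios were 2.19, 2.15, 2.15 and 1.86 under GFP and 2.81, 2.45, 2.61 and 2.78 under Nr4a1. The groups did not overlap, and GFP-labelled replicate 4 lay below the other GFP-labelled arrays. Pou3f1 rose by 0.58 ± 0.09, or 1.49-fold (limma, adjusted p = 0.00156), and by 0.62, 0.30, 0.46 and 0.92 in the pairs. In Agilent's own ratio the difference was 0.43 and missed the threshold (limma, adjusted p = 0.0607). Both channels differed between the groups: net Cy5 was 2.15 times higher on average and net Cy3, which carried the same reference RNA, 1.39 times higher. The part of the reference difference in the result was not tested.

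Spink8 encodes a Kazal-type serine peptidase inhibitor. Its log2 ratios were 5.48, 5.30, 5.59 and 5.54 under GFP and 4.51, 4.25, 4.30 and 4.75 under Nr4a1. The lowest GFP-labelled array was above the highest Nr4a1-labelled array by 0.56. Spink8 fell by 1.03 on the log2 scale (SE 0.08, limma, adjusted p = 1.91e-05), a 2.04-fold fall seen in 4 of 4 pairs. The ratio had a dim denominator: net Cy3 was 74 to 98 under GFP and 28 to 51.5 under Nr4a1, and Cy3 was well above background on 7 of the 8 arrays. Net Cy5 went from 6321 to 7849 under GFP to 1952 to 2362 under Nr4a1, and the Cy5 channel alone gave a difference of -1.80 (limma, adjusted p = 3.93e-06). In Agilent's own ratio the difference was -0.28 and missed the threshold (limma, adjusted p = 0.0756).

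Mpped1 encodes a protein with a metallophosphoesterase domain. Its log2 ratios were 5.71, 5.76, 5.91 and 5.66 under GFP and 5.03, 4.68, 4.66 and 4.89 under Nr4a1. The Nr4a1-labelled arrays were all below the GFP-labelled ones, with a gap of 0.63. Mpped1 fell by 0.95 on the log2 scale (SE 0.09, limma, adjusted p = 7.77e-05), a 1.93-fold fall, with pair differences of -0.68, -1.08, -1.25 and -0.77. Its net Cy5 signal ran from 6676 to 10112 under GFP and from 3334 to 5661 under Nr4a1, beside a ratio of Cy3 group means of 0.96.

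Fibcd1 encodes a membrane receptor with a fibrinogen-like domain that binds acetylated structures such as chitin. Its probe was dim, with net Cy5 signals of 61 to 133 under GFP and 26.5 to 56 under Nr4a1. In the GFP group 4 of 4 arrays had Cy5 well above background, in the Nr4a1 group 2 of 4, and for Cy3 it was 0 of 8. The log2 ratios were 1.34, 1.62, 1.34 and 0.92 under GFP and 0.64, 0.69, 0.65 and 0.53 under Nr4a1, without overlap. Fibcd1 fell by 0.67 on the log2 scale (SE 0.08, limma, adjusted p = 0.000308), 1.60-fold. Agilent's own ratio, with the same reference signal near background, gave a difference of -1.51.

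Bok, a member of the BCL2 family of cell death regulators, had the largest difference of the 10 genes. Its log2 ratios were -2.15, -2.02, -2.06 and -1.93 under GFP and -0.33, -0.43, -0.38 and -0.22 under Nr4a1. The normalised ratio was below 0 on all 8 arrays, and a gap of 1.51 separated the groups. Bok rose by 1.70 ± 0.06, or 3.26-fold (limma, adjusted p = 1.23e-07), by 1.83, 1.60, 1.67 and 1.71 in the pairs, and 99.9% of all features had a smaller absolute difference. Net Cy5 rose from 824 to 1075.5 under GFP to 2423 to 3334 under Nr4a1. Net Cy3 went the other way, with a ratio of group means of 0.85, and the Cy5 channel alone gave a difference of 1.49 (limma, adjusted p = 1.72e-06).

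**Figure D2:**
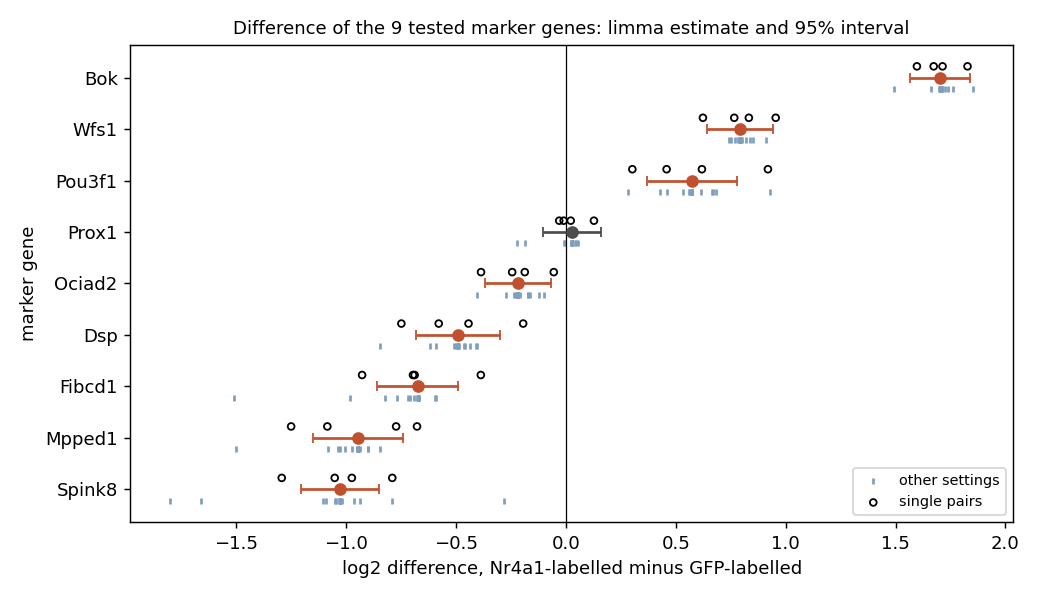
Nr4a1 minus GFP difference in log2 ratio (horizontal axis) for the 9 tested marker genes, with the limma estimate and its 95% interval, open circles for the 4 pairs and ticks for the other settings. Bok is farthest to the right at 1.70, the estimate for Spink8 farthest to the left at -1.03, and the interval of Prox1, from -0.10 to 0.16, spans 0.

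Prox1 encodes a homeobox transcription factor needed to make and keep granule cell identity. Its log2 ratios were 0.75, 1.00, 0.76 and 0.40 under GFP and 0.72, 0.99, 0.78 and 0.53 under Nr4a1. The groups lay over each other, and 2 pairs were higher and 2 lower. The difference was 0.03 ± 0.06 (limma, adjusted p = 0.774), with a 95% interval from -0.10 to 0.16. The probe was dim, at net Cy5 signals of 32 to 70.5, and cleared the software's background criterion on 3 arrays under GFP and 2 under Nr4a1, and in Cy3 on 0 of 8. The offset of 50 shrinks such ratios, and Agilent's own ratio gave -0.22 with a standard error of 0.29.

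Dsp encodes desmoplakin, which anchors intermediate filaments to desmosomes. The tested probe was spotted 10 times on each array, and the mean log2 ratios were 0.11, 0.30, 0.41 and -0.12 under GFP and -0.33, -0.27, -0.34 and -0.32 under Nr4a1. GFP-labelled replicate 4 was the lowest of its group and still above every Nr4a1-labelled array. Dsp fell by 0.49 on the log2 scale (SE 0.09, limma, adjusted p = 0.00259), with pair differences of -0.44, -0.58, -0.75 and -0.19. The SD between arrays was 0.23 under GFP and 0.028 under Nr4a1, and the 10 spots of 1 array had SDs of 0.060 to 0.11. Agilent's own ratio gave -0.85. The reference channel showed a ratio of group means of 1.02. The other Dsp probe cleared the background criterion on 0 of 8 arrays and entered no test.

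Tdo2 encodes tryptophan 2,3-dioxygenase, the first enzyme of the kynurenine pathway in liver. No array of the 8 had its probe well above background, so it entered no test. The log2 ratios were 0.17, 0.00, 0.31 and 0.23 under GFP and 0.03, -0.14, -0.02 and -0.04 under Nr4a1, with overlap, at net Cy5 signals of 5 to 19.5. These cultures thus gave a measured level of Dsp and a partial one of Prox1 among the 3 granule cell markers, and no level of Tdo2 above background.

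Ociad2, which encodes a protein with an OCIA domain, had log2 ratios of 3.92, 3.85, 3.90 and 3.97 under GFP and 3.73, 3.47, 3.65 and 3.91 under Nr4a1. The groups overlapped, although each pair was lower under Nr4a1. Ociad2 fell by 0.22 on the log2 scale (SE 0.07, limma, adjusted p = 0.0402), 1.16-fold. The call was lost in 11 of 19 other settings. Without replicate 1, 2 or 3 the differences were -0.23, -0.16 and -0.21 (limma, adjusted p = 0.0925, 0.210 and 0.0961), and without the pair block the adjusted p was 0.0889. The Cy5 channel alone gave -0.10 (limma, adjusted p = 0.291).

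The labels name the same reference RNA in the Cy3 channel of every array. Whether signal of the culture channel reached the reference channel was not tested. Taken alone, Cy3 differed between the groups at an adjusted p of 0.05 in 13.2% of the features, and Cy5 in 29.1%. The median absolute difference was 0.076 in Cy3 and 0.14 in Cy5. Among the 9 tested genes, Cy3 differed in 3: Spink8 by -0.62, Pou3f1 by 0.32 and Bok by -0.26 (limma on Cy3 alone, adjusted p = 0.0153, 0.0229 and 0.0317). For Spink8 and Pou3f1 the reference moved the same way as the culture, and for Bok the opposite way. For Wfs1, Mpped1 and Dsp the Cy3 difference lay between -0.05 and 0.0007 and did not pass, and the Cy5 channel alone gave 0.82, -1.08 and -0.50, each past the threshold. For Fibcd1 the Cy5 channel alone gave -0.72, also past it, and Cy3 was at background on all 8 arrays.

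**Figure D3:**
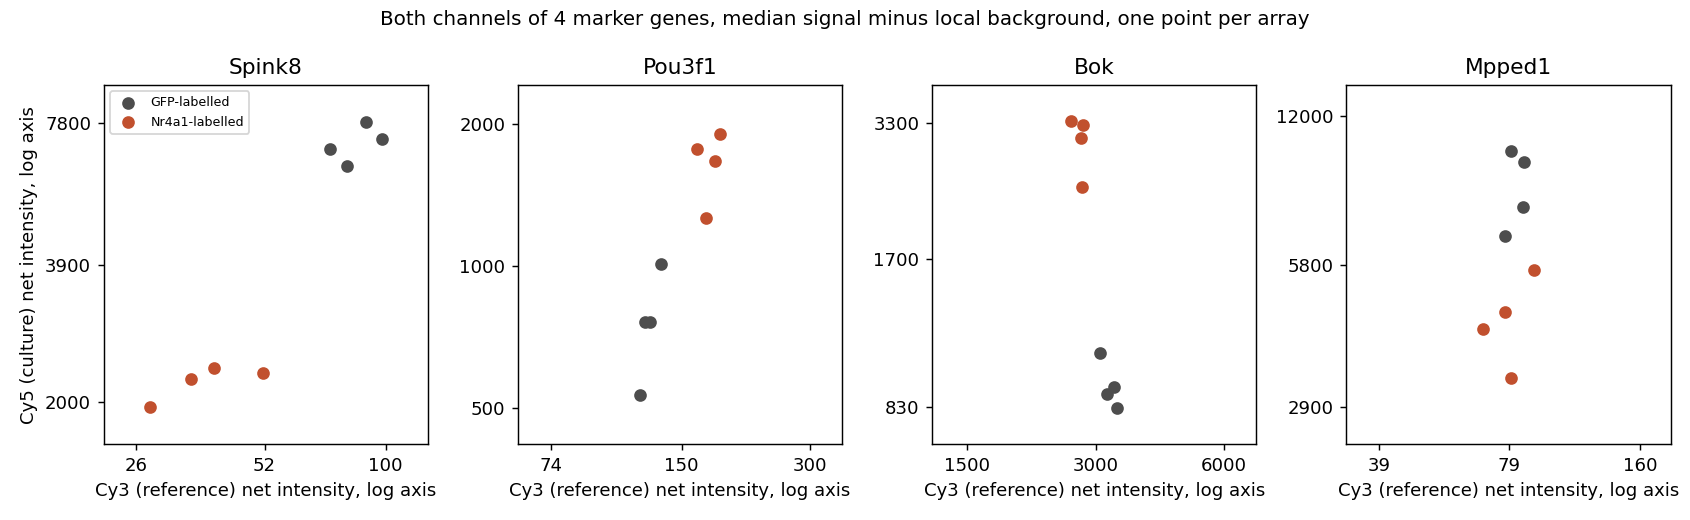
Background-subtracted intensity of the culture channel (Cy5, vertical log axis) against the reference channel (Cy3, horizontal log axis) for Spink8, Pou3f1, Bok and Mpped1, 1 point per array. The groups part along both axes for Spink8, Pou3f1 and Bok, while the Mpped1 points share a Cy3 range of 68.5 to 90.

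Other genes known to mark the same subfields were listed for comparison, with the 10 left out. Their counts below stand beside the shares of all features that passed, 12.8% higher and 11.5% lower. Among CA1 markers, 0 were higher and 3 lower of 6 tested (median difference -0.15): Ccn3, a secreted matricellular protein, by -0.83 ± 0.09, Dcn, the proteoglycan decorin, by -0.59 ± 0.07, and Tyro3, a receptor tyrosine kinase, by -0.23 ± 0.07. The Tyro3 call (limma, adjusted p = 0.0432) was lost without replicate 2, 3 or 4 (0.226, 0.0974 and 0.0905). The remaining CA1 genes Man1a, Ndst4 and Gpr161 had differences from -0.07 to 0.18 that did not pass. The rises of Wfs1 and Pou3f1 thus had no counterpart among the listed CA1 genes that passed.

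CA2 markers had the most falls, with 7 lower and 1 higher of 9 tested and a median difference of -0.36. Rgs14, a regulator of G-protein signalling, fell by 0.97 on the log2 scale (SE 0.06, limma, adjusted p = 7.38e-06), Ptpn5, the striatal-enriched phosphatase STEP, by 0.93, and Ntf3, the growth factor neurotrophin-3, by 0.88. Stard5, Pcp4, Necab2 and Amigo2 had differences of -0.48, -0.36, -0.35 and -0.31, and Cacng5, an AMPA receptor auxiliary subunit, one of 0.46. Ntf3 was at -0.33 in Agilent's own ratio (limma, adjusted p = 0.530), Necab2 at -0.30 (0.0714) and Pcp4 at -0.20 (0.170), and under median centring Pcp4 was at -0.16 (0.232). The Amigo2 call (limma, adjusted p = 0.0410) was lost without replicate 2, 3 or 4 (0.168, 0.0519 and 0.152). The summed net Cy5 signal of the 9 ran from 124364 to 161554 under GFP and from 71214 to 98765 under Nr4a1, without overlap. The sums of each other subfield list and of the tested marker genes overlapped between the groups. Such sums are not normalised and weigh the brightest probes most. In Agilent's own ratio 0 were higher and 3 lower, with Cacng5 at 0.02.

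Bok rose while most CA3 and mossy cell markers that passed were lower. Of 8 tested, 4 were lower and 1 higher, with a median of -0.27. Socs2, a suppressor of cytokine signalling, fell by 0.84 on the log2 scale (SE 0.07, limma, adjusted p = 2.45e-05), Coch and Nectin3 each by 0.42, and Cpne4 by 0.32. Coch in Agilent's own ratio was at -0.91 (limma, adjusted p = 0.157) and Cpne4 at -0.07 (0.731). The Cpne4 call (limma, adjusted p = 0.0169) was lost without replicate 1 or 3 (0.0611 and 0.0615). Csf2rb2, a cytokine receptor chain, was higher by 0.19 (limma, adjusted p = 0.0492), a call lost without any 1 of the replicates (0.166, 0.0503, 0.107 and 0.137). Grik4, a kainate receptor subunit concentrated in CA3, differed by -0.22 ± 0.09 (limma, adjusted p = 0.112) and did not pass in the main fit. It did without replicate 4 (-0.33, adjusted p = 0.0229) and in Cy5 alone (-0.31, adjusted p = 0.0301).

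Among 9 dentate granule cell markers, 4 were lower and 1 higher, with a median of -0.19. Calb1, the calcium buffer calbindin, fell by 1.25 on the log2 scale (SE 0.08, limma, adjusted p = 3.86e-06), C1ql3, a secreted synaptic C1q-like protein, by 0.76, and Ablim3 by 0.49. Lct, which encodes lactase, fell by 0.74 on the log2 scale (Agilent's own ratio -2.34), but Cy5 was well above background on 4 arrays under GFP and 1 under Nr4a1. Agilent's own ratio gave -2.58 for Calb1 and -0.74 for C1ql3, where C1ql3 missed the threshold (limma, adjusted p = 0.0789), and 1.27 for Trpc6. Trpc6, a cation channel, rose by 0.71 ± 0.06. C1ql2, Dock10, Stxbp6 and Plk5 had differences from -0.19 to 0.10 that did not pass, as did Prox1. Calb1 is also made by CA1 pyramidal cells and by interneurons, so it is not a granule cell gene alone. Of 3 tested genes of the subiculum and neighbouring cortex, Slc17a6, the vesicular glutamate transporter VGLUT2, rose by 0.59 ± 0.07. The other 2 did not pass in the main fit. Fn1 was higher by 0.28 under median centring (limma, adjusted p = 0.0242) and by 0.35 without replicate 3 (0.00966). Slc17a6 was at 0.20 in Agilent's own ratio (limma, adjusted p = 0.703). With all spots kept in the background correction, 0 CA1, 1 CA2, 1 CA3 and 2 granule cell markers of these lists were lower.

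**Figure D4:**
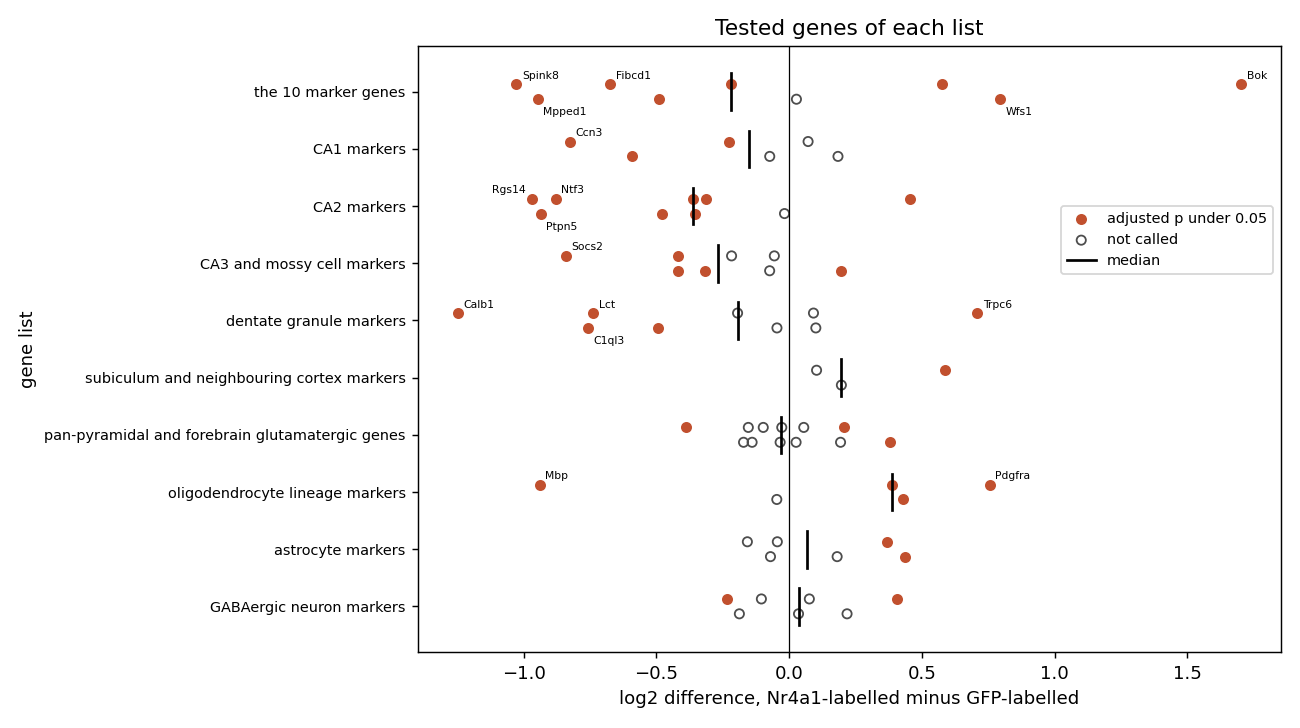
Nr4a1 minus GFP difference in log2 ratio (horizontal axis) of each tested gene of the 10 marker genes, of the subfield lists and of 4 lists for other cell classes, filled where the adjusted p was under 0.05, with a bar at each median. The CA2 list is centred at -0.36, and Bok at 1.70 lies to the right of every gene of the other subfield lists.

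Genes shared by pyramidal cells passed at about the share of all features, 3 of 12 beside 24.4%. Of these 12 pan-pyramidal and forebrain glutamatergic genes, Emx2 (0.38 ± 0.07) and Bcl11b (0.21 ± 0.06) were higher and Neurod6 (-0.39 ± 0.07, but 0.039 in Agilent's own ratio) lower, with a median of -0.03. Slc17a7, the main vesicular glutamate transporter of these cells, differed by -0.10 ± 0.06 and did not pass. The Bcl11b call (limma, adjusted p = 0.0355) was lost without replicate 1, 2 or 4 (0.123, 0.103 and 0.120). Of 6 pan-neuronal genes Syt1 was lower, by -0.25 ± 0.07 (limma, adjusted p = 0.0367), a call lost without replicate 1 or 3 (0.154 and 0.123).

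Markers of other cells in such cultures were measured beside these, where 24.4% of all features passed. Of 5 oligodendrocyte lineage genes 3 were higher and 1 lower: Pdgfra rose by 0.76 ± 0.06, Cspg4 by 0.43 ± 0.07 and Olig2 by 0.39 ± 0.06 (but -0.23 in Agilent's own ratio), while Mbp fell by 0.94 on the log2 scale. Their summed net Cy5 signal ran from 2124 to 3443 under GFP and from 1900 to 3458 under Nr4a1, with overlap. Of 6 astrocyte genes Aqp4 (0.43 ± 0.10, but -0.10 in Agilent's own ratio) and Gja1 (0.37 ± 0.08) were higher, and the sums, 36030 to 50719 and 34881 to 62154, overlapped. The Aqp4 call was also lost with offset 16, with the mean over a gene's probes and in the authors' deposited table. The other 4 did not pass in the main fit, with differences from -0.16 for Gfap to 0.18 for Aldh1l1. Gfap passed as lower in 2 other settings and Aldh1l1 as higher in 7. Of 7 GABAergic genes Dlx1 was higher by 0.41 ± 0.07 and Sst lower by -0.23 ± 0.06 (limma, adjusted p = 0.0250), the latter lost without replicate 1, 2 or 3 (0.0942, 0.0910 and 0.0803). Csf1r fell by 0.75 on the log2 scale and was the only 1 of 4 tested microglia genes to pass. Lum fell by 1.00 and was the only 1 of 5 vascular and fibroblast genes to pass. The others of these 5 had differences from -0.11 for Col1a1 to 0.17 for Col1a2. The part of these cells in the differences of the subfield markers was not tested. Of 5 tested genes of immature neurons Dcx (-1.28 ± 0.26), Calb2 (-0.92 ± 0.10) and Igfbpl1 (-0.30 ± 0.07) were lower and Sox11 (0.28 ± 0.07) higher. Dcx was at 2.09 on Nr4a1-labelled replicate 3 and at 3.70 to 3.96 on the others of that group, and its difference without replicate 3 was -0.82 (limma, adjusted p = 6.87e-05). In Agilent's own ratio Dcx, Calb2 and Igfbpl1 were at -2.41, -0.37 and -0.13 and missed the threshold (adjusted p = 0.168, 0.311 and 0.812). Igfbpl1 missed the threshold without replicate 1 or 4 (limma, adjusted p = 0.0507 and 0.0516), and Sox11 without replicate 1 or 2 (0.0812 and 0.112).

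Among close relatives and partners of the 10 genes, 2 of 7, 2 of 6, 1 of 7 and 2 of 5 passed in the 4 lists below, beside 24.4% of all features. Among 7 tested paralogs, Mpped2 was lower by -0.29 ± 0.06, in the direction of Mpped1, and Pou3f3 was higher by 0.29 ± 0.07 (limma, adjusted p = 0.0108), in the direction of Pou3f1, although without replicate 1 its adjusted p was 0.0503 and Agilent's own ratio gave -0.46. Bax and Bak1, the BCL2-family effectors related to Bok, differed by -0.05 ± 0.06 and -0.10 ± 0.06 and did not pass. Of 6 tested desmosome partners of Dsp, Pkp1 and Pkp4 were both at -0.20 ± 0.06 (limma, adjusted p = 0.0392 and 0.0340), and neither call held without any 1 of the replicates (0.0665 to 0.146 and 0.0546 to 0.185). Of 7 genes of wolframin's setting, the endoplasmic reticulum stress response, Ddit3 was lower by -0.23 ± 0.07 (limma, adjusted p = 0.0354), lost without replicate 1, 2 or 4 (0.123, 0.0991 and 0.135), and the chaperone Hspa5 differed by 0.05 ± 0.07 and did not pass. Among 5 tested genes of tryptophan breakdown, the kynurenine aminotransferase genes Kyat1 and Kyat3 rose by 0.83 ± 0.07 and 0.49 ± 0.06.

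The 3 genes of largest difference were set beside all 14978 other named genes with values on all 8 arrays, by the root mean square distance between profiles centred on their own mean. Nearest to Bok were Nppc at 0.093, Tmprss9 at 0.096 and 4930555G01Rik at 0.099, with differences of 1.83, 1.59 and 1.67. Nearest to Spink8 were Ptpn5 at 0.13, Ccdc88b at 0.13 and Mcub at 0.13, with differences of -0.93, -1.07 and -1.15. Nearest to Mpped1 were Ptpn5 at 0.050, Mbp at 0.073 and Npy1r, a neuropeptide Y receptor gene, at 0.095. These distances describe likeness on 8 arrays and rest mainly on the difference between the groups. Nppc did not keep its direction in Agilent's own ratio, at -0.75 (limma, adjusted p = 0.0537).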

How the data were processed

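Expression in 8 samples of cultured mouse hippocampal neurons was measured on 2-colour arrays. The deposited scanner files give spot signal and background intensities on a linear scale and a log10 ratio of Cy5 over Cy3 per the file headers, which name version 11.0.1.1 of Agilent's extraction software. The authors' deposited value table was read as log2 of sample over reference. Against the log2 ratios computed here, its columns had slopes of 0.992 to 1.008 and correlations of 0.998 to 1.00. Agilent Feature Extraction and limma stand in the submitters' processing notes, and settings are not given in the sources used here.

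Median signals were background-corrected by normexp (offset 50, which shrinks folds of dim probes) after leaving out spots with a non-uniform local background, and normalised by loess with control spots at weight 0; outlier spots were dropped. Replicate spots were averaged, and a gene took its brightest probe. Tests needed Cy5 well above background on 4 or more of the 8 arrays and 3 values per group. A RefSeq table (GRCm38.p6) named 26581 of 39429 probes. Groups were compared with limma 3.58.1 (R 4.3.3), two-sided, with the pair tag of the labels as a fixed block, Benjamini-Hochberg adjusted over 21116 features at 0.05. Within pairs, deviations from the group means had correlations of -0.10, 0.28, -0.015 and 0.43. Channels alone were fitted the same way after quantile scaling. The fit was checked on simulated data, and 19 alternatives were run, of which scale normalization, every probe tested on its own and Cy5 alone were chosen after seeing the data.

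The 10 genes and all marker lists were chosen with earlier results of these data known. Named genes are the 10, the list members past the threshold and the 3 profiles nearest to each of the 3 genes of largest difference. Genes named that did not pass were chosen after their values were seen. Some listed genes are not reported here. The number of arrays limits the precision.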

Additional observations from a re-analysis of the deposited data

Results flagged for a closer look

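The log2 ratio of Pou3f1 on GFP-labelled replicate 4 was 1.86, apart from the other GFP-labelled arrays at 2.15 to 2.19. Its gap to the nearest of them made up 0.87 of the range of the group, above Dixon's critical value for 4 samples. The rule was applied to 22 groups of 4 arrays, and chance marks about 1 group in 20. Without replicate 4 the Pou3f1 difference was 0.46, on the same side of the threshold.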

How the results depend on the processing

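The 3 higher and 5 lower calls among the 9 tested genes ranged over 3 and over 4 to 5 when 1 replicate was left out. Over all features the counts then ran from 1779 to 2569 higher and from 1618 to 1994 lower. With all spots in the background correction, 130 features were higher and 100 lower, and 0 of the marker genes were lower. In that setting 6 of the 9 had an unadjusted p under 0.05 (limma), beside 3975 of all 21116 features. Agilent's own ratio gave 1510 and 1351 features and 3 lower marker genes. Median centring gave 1263 lower features, and 73.3% of all calls were then higher, against 52.7%. With slide as a random block (correlation 0.86), 8 features were higher and 4 lower, and 0 and 0 marker genes. There 3 of the 9 tested marker genes had an unadjusted p under 0.05, beside 729 of all 21116 features. The adjusted p of Bok was 0.0721 (limma). As no slide held both groups, the slide setting cannot tell slide from group, and the cause of the loss of calls was not tested. Without the replicate block 2349 and 2126 features and 3 and 4 marker genes were called, and the pair block changed only the Ociad2 call among the 10 genes. Quantile scaling between arrays leaves ratios as they are.

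Prox1, which passed in 0 settings, ranged from -0.22 to 0.055 and so took both signs. Directions that passed the test in either setting turned in 12 cases, none of them among the 10 genes. In Agilent's own ratio Neurod6 was at 0.039, Aqp4 at -0.10, Olig2 at -0.23, Pou3f3 at -0.46 and Nppc at -0.75. With all spots Aqp4 was at -0.21, Olig2 at -0.13, Pou3f3 at -0.18 and Pkp1 at 0.14. In Cy5 alone Stxbp6 was at -0.25 and Mog at 0.35, and in the authors' deposited table Camk2a was at -0.30. Camk2a has 2 probes, and whether the same probe was read in that table was not checked. Wfs1 and Bok kept their call in 18 of 19 settings, Mpped1 and Dsp in 17, Spink8 and Pou3f1 in 16, and Fibcd1 in 16 of 18. These settings were not all free to differ. Quantile scaling between arrays could change none of these calls. The filters on signal, the settings on a gene's probes, no replicate block and batch as the block left these differences as they were. They changed only the errors and adjusted p. Fibcd1 and Prox1 lay near background in Cy3, which limits their ratios. Neither was tested where Cy5 had to be well above background on all 8 arrays.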
